A study of Mus musculus with 9 samples.

Results

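Differentiating progenitors of the embryonic mouse cortex were compared with proliferating progenitors, the first step of the neurogenic lineage. Both populations came from the lateral cortex of C57BL/6 embryos at embryonic day 14.5 and were sorted on 2 endogenous reporters that the sample titles call R and G: proliferating progenitors carried neither, differentiating progenitors carried R and not G. The comparison used 6 of the 9 small RNA libraries of the series, 3 per population, and every row of the count table with a miRNA database identifier, with the row of the largest total kept for each mature name. This gave 1052 mature miRNAs, of which 560 had a count and 188 were abundant enough to test. The 3 libraries of newborn neurons, positive for G, helped to estimate the spread and are quoted as a further value. They also entered the abundance filter, so some miRNAs were tested only because of their level in neurons. The labels do not name the reporter genes; as background from knowledge of this mouse line, R follows Btg2, a gene switched on in progenitors about to make neurons, and G follows Tubb3, a gene of young neurons. Proliferating progenitors were thus defined by the absence of signal, and the labels give no marker that would remove cells of blood or vessels from that gate. The labels also do not say whether the libraries of a population came from separate embryos or litters, so the p-values measure only the spread between these libraries, which may be technical.

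A miRNA is a short RNA that guides Argonaute proteins to messenger RNAs, mostly through pairing of its seed, bases 2 to 8 counted from the 5′ end, and lowers their stability and translation. miRNAs with the same seed are counted as a family, and neighbouring miRNA genes are often cut from a shared primary transcript. In the developing cortex miR-9 is known as a regulator of progenitor proliferation and differentiation, miR-124 and miR-7 as miRNAs of differentiating neurons, and the miR-17-92 cluster as a cluster of dividing progenitors.

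Library totals of counted miRNA rows ran from 821155 to 1323826 in proliferating and from 1131750 to 1490379 in differentiating progenitors, so that 3 counts, the upper limit that a count of 0 allows, stood for 2.01 to 3.65 counts per 1000000 of the library total (CPM) before scaling. Such limits cover counting error only, since amplified reads are not independent molecules. The neural identity of the sort is visible in miR-9-5p, which held 66.2% to 69.0% of the counts in proliferating and 62.5% to 65.5% in differentiating progenitors. None of the 5 rows of the muscle list (miR-1, miR-133 and miR-206) had a count in any progenitor library, and the 5 rows of the epithelial miR-200 family reached at most 1. Of the 1059 mature names 785 are 5p arms and 109 are 3p arms, so for many hairpins only the 5p strand is described here. The low counts of the muscle and miR-200 rows therefore do not show that such cells were absent.

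Of the 188 tested miRNAs, 30 (16.0%) differed between the populations in edgeR's quasi-likelihood test with Benjamini-Hochberg adjustment, 15 higher (7.98%) and 15 lower (7.98%) in differentiating progenitors. At an unadjusted p under 0.05 the count was 50. In the 6 progenitor libraries alone 167 miRNAs passed the filter and 29 were called, 15 higher and 14 lower. Of these calls 26 were shared with the 30. Shares over all 188 thus include miRNAs that passed the filter only with the neuron libraries. Without replicate 1 of the proliferating progenitors 18 were called, 5 higher and 13 lower, and without replicate 3 of the differentiating progenitors 21 were called, 7 higher and 14 lower. For 61 miRNAs (32.4%) no library of one population fell within the range of the other, of which 27 were called and 34 were not. The median log2 change over all 188 was 0.08, and 110 were above 0 against 78 below.

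The calls lay in the middle and lower range of abundance. Of the 36 miRNAs with a mean of at least 1000 CPM over the 6 libraries, only miR-7a-5p and miR-541-5p were called (5.56%), and the median size of the log2 change in this tier was 0.10. Of the 45 miRNAs between 100 and 1000 CPM 12 were called (26.7%), 4 higher and 8 lower. Among 81 miRNAs between 10 and 100 CPM there were 11 calls, and among 26 below 10 CPM there were 5. The 15 miRNAs called higher held 0.432% to 0.517% of the counts in proliferating and 0.758% to 0.877% in differentiating progenitors. Without miR-7a-5p the other 14 held 0.149% to 0.158% and then 0.275% to 0.290%. Those called lower held 0.358% to 0.374% and then 0.118% to 0.139%. Of this, miR-486-5p and the called miRNAs of the blood and vessel lists below held 0.123% to 0.157% and then 0.0064% to 0.0079%. Both sets were chosen by the test, so their shares differ by construction.

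**Figure D1:**
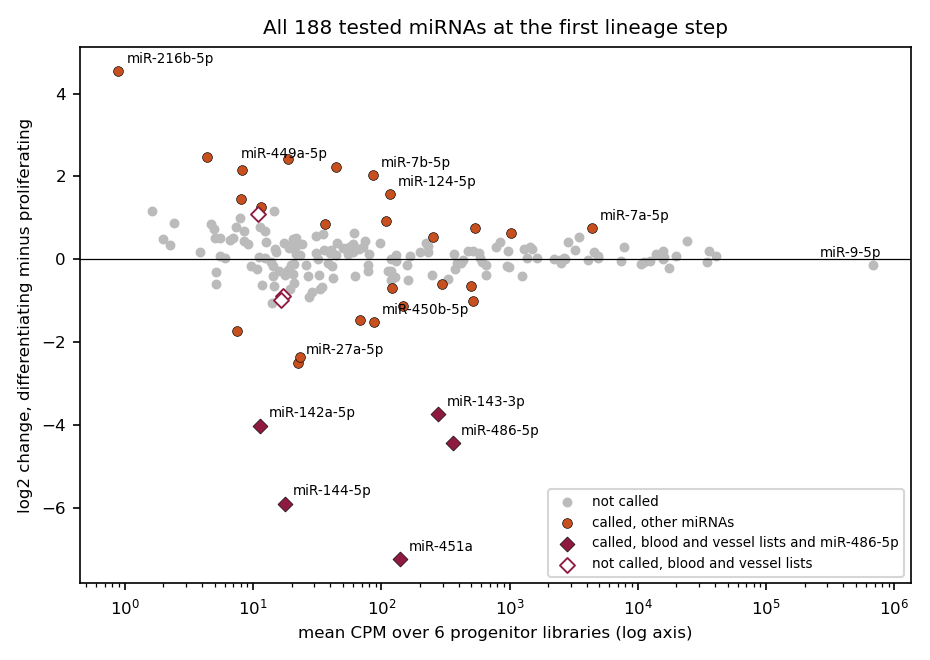
Log2 change from proliferating to differentiating progenitors against mean abundance over the 6 progenitor libraries, for all 188 tested miRNAs (each point is 1 miRNA). The 5 largest falls are those of miR-451a, miR-144-5p, miR-486-5p, miR-142a-5p and miR-143-3p; the position of miR-216b-5p rests on at most 3 counts per library and depends on the model's prior.

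The 5 most abundant miRNAs showed no call. miR-9-5p was at 664392, 738085 and 741238 CPM in proliferating and 642491, 623446 and 672962 CPM in differentiating progenitors (edgeR log2 change -0.14 with SE 0.11, adjusted p = 0.459). The lowest proliferating library lay between the differentiating ones. Without replicate 3 of the neurons the fall passed the threshold (log2 change -0.17, adjusted p = 0.0419). The groups overlapped also for let-7i-5p (log2 change 0.08), miR-99a-5p (0.19), let-7f-5p (-0.07) and let-7c-5p (0.43), with edgeR adjusted p-values of 0.711, 0.470, 0.714 and 0.0732. The value of let-7c-5p, 20038, 24393 and 16901 CPM against 21928, 31547 and 29310 CPM, passed the threshold without replicate 2 of the proliferating progenitors (edgeR adjusted p = 0.0183), without replicate 1 of the differentiating progenitors (0.0226) and without replicate 3 of the neurons (0.0419). It passed also in DESeq2 (0.0497), without the filter (0.0446), with a filter at 10 CPM (0.0228) and with library totals as scaling (0.0470).

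The mature sequences on which the comparison turns are shown first for the miRNAs that rose, because 2 pairs of them share a seed, and then for those that fell. Sequences and positions are those of RefSeq on GRCm38.p6, the mm10 assembly, where 163 of the 188 tested miRNAs were matched by name. Capitals mark the seed.
miR-7a-5p: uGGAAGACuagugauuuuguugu
miR-7b-5p: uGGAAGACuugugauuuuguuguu
miR-449a-5p: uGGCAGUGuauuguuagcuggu
miR-449c-5p: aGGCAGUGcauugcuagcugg
miR-541-5p: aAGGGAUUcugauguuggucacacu
miR-134-5p: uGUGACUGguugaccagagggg
miR-380-5p: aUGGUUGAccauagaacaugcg
miR-183-5p: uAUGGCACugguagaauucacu
miR-135a-5p: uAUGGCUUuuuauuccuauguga
The next set fell, except miR-450a-5p and miR-148b-5p, which are printed because they are the cluster neighbour and the seed relative of a miRNA that did.
miR-450b-5p: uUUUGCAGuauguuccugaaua
miR-450a-5p: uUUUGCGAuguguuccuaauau
miR-148a-5p: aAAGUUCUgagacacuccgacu
miR-148b-5p: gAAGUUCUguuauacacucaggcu
miR-129-5p: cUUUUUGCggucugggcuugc
miR-27a-5p: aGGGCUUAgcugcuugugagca
miR-92b-5p: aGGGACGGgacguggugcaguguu
miR-32-5p: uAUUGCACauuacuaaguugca
The last set belongs to the blood lists.
miR-451a: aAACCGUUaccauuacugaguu
miR-144-5p: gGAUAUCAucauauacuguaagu
miR-142a-5p: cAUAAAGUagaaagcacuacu

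The 5 steepest falls were those of miR-486-5p and of miRNAs from the blood and vessel lists. Of 8 tested miRNAs of the erythroid, immune, endothelial and mural lists plus miR-486-5p, 5 were called, all lower in differentiating progenitors, against 7.98% called lower among all tested miRNAs. The summed level of the 21 rows of the blood and vessel lists, without miR-486-5p, was 839, 1008 and 915 CPM in proliferating and 77.8, 91.6 and 85.4 CPM in differentiating progenitors. In the neurons it was 63.0, 51.2 and 46.1 CPM. The proliferating libraries all lay far above the rest. Most of their level was miR-143-3p (429, 559 and 565 CPM) and miR-451a (296, 305 and 240 CPM). The immune rows alone summed to 47.8, 60.3 and 47.1 CPM in proliferating against 20.7, 37.0 and 25.6 CPM in differentiating progenitors. For the endothelial rows the sums were 22.7, 18.4 and 26.2 CPM against 11.4, 12.3 and 12.1 CPM. In bulk libraries of sorted cells, fewer cells of a type and less RNA per cell cannot be told apart.

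The erythroid pair of miR-451a, known as a miRNA of red blood cells that is matured without Dicer, and miR-144-5p lies at chr11:78073186-78073207 and chr11:78073010-78073032 on the plus strand. miR-451a had 390, 298 and 183 counts against 3, 1 and 3, and miR-144-5p had 45, 48 and 16 against 1, 0 and 1. All differentiating libraries were at or under 3 counts, so the falls are given against 3 counts per library. They were 121-fold for miR-451a and 15.0-fold for miR-144-5p (edgeR adjusted p = 2.30e-10 and 2.31e-06). These are not strict bounds, since 3 counts is the upper limit for a count of 0 and not for higher counts. miR-486-5p, which is abundant in red cells and is also the miRNA of the study's title, was at 777, 810 and 476 CPM against 32.1, 22.02 and 39.9 CPM (edgeR log2 change -4.44 with SE 0.26, adjusted p = 5.67e-10). In neurons it stood at 102, 105 and 83.0 CPM, where miR-451a had 5, 0 and 3 counts. Thus 25 to 56 counts of miR-486-5p were found in each differentiating library against at most 3 of miR-451a. The part of red blood cells in the fall of miR-486-5p was not tested.

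Among the immune miRNAs, miR-142a-5p, a miRNA of nearly all blood leukocytes and of microglia at chr11:87756867-87756887 in an intron of the lincRNA Mir142hg, had 34, 20 and 14 counts against 3, 1 and 1. Against 3 counts per library the fall was 9.33-fold (edgeR adjusted p = 1.06e-05), again not a strict bound. miR-155-5p, induced in activated immune cells, was at 17.4, 26.6 and 20.9 CPM against 8.57, 18.5 and 6.41 CPM, and the groups overlapped (edgeR log2 change -0.98 with SE 0.36, adjusted p = 0.0732). It passed without replicate 2 of the differentiating progenitors (edgeR log2 change -1.50, adjusted p = 0.0108) and with the replicate number as a block (0.0483). miR-146a-5p, a brake on innate immune signalling, went the other way, at 3.79, 12.3 and 5.24 CPM against 9.28, 16.7 and 18.5 CPM (edgeR log2 change 1.08 with SE 0.42, adjusted p = 0.0966). It was called without replicate 2 of the proliferating progenitors (edgeR log2 change 1.75, adjusted p = 0.0190), without replicate 1 of the differentiating progenitors (1.33, 0.0446) and with the replicate block (1.06, 0.0440). The 5p row of miR-223, whose 3p strand is a defining miRNA of myeloid cells, had at most 1 count in any progenitor library, and so did miR-150-5p of lymphocytes.

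Vessel miRNAs fell unequally. miR-143-3p, known from smooth muscle and pericytes, was at 429, 559 and 565 CPM against 35.7, 39.6 and 39.9 CPM (edgeR log2 change -3.75 with SE 0.28, adjusted p = 1.49e-08), a 13.5-fold fall with no overlap. miR-126a-5p, from the endothelial gene Egfl7, was at 22.7, 18.4 and 26.2 CPM against 11.4, 12.3 and 12.1 CPM (edgeR log2 change -0.90 with SE 0.32, adjusted p = 0.0638). Its groups did not overlap, but the test did not pass; it passed without replicate 2 or 3 of the neurons (edgeR adjusted p = 0.0289 and 0.0497) and with the replicate block (0.0432). miR-145a-5p, cut from the same transcript as miR-143, had 3, 6 and 4 counts against 2, 0 and 0, too few to test. miR-199a-5p had 6, 5 and 6 counts against 4, 1 and 5, and the row of miR-214-5p was at 0 in all 6 libraries.

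**Figure D2:**
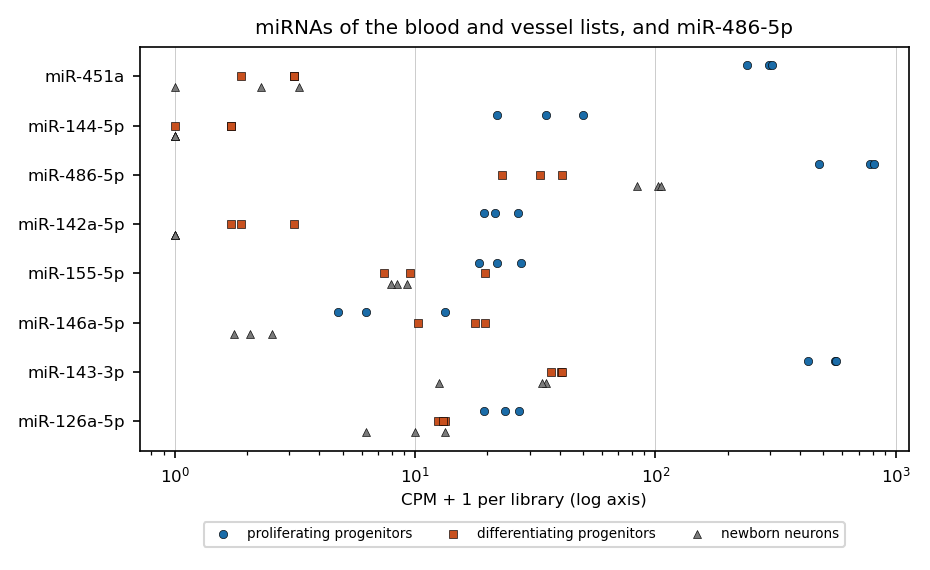
CPM + 1 per library on a log axis for the 7 tested miRNAs of the blood and vessel lists and miR-486-5p (each symbol is 1 library, with 3 per population). For miR-451a, miR-144-5p, miR-486-5p, miR-142a-5p and miR-143-3p the proliferating libraries stand clear of the differentiating ones, while miR-155-5p and miR-146a-5p overlap.

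Outside these lists 180 miRNAs were tested, and 25 (13.9%) passed, with 15 rises and 10 falls towards differentiating progenitors; 9 of the rises and 7 of the falls were at least 2-fold, counting miR-216b-5p, whose fitted value depends on the model's prior. When the blood and vessel rows and miR-486-5p were removed before scaling and testing, 24 were called, all among the 25; the call lost was that of miR-466i-5p (edgeR adjusted p = 0.0501).

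The miR-7 family rose. miR-7b-5p, encoded at chr17:56243017-56243040 on the plus strand outside any annotated gene of that strand, was at 37.9, 30.7 and 31.4 CPM in proliferating and 109, 153 and 152 CPM in differentiating progenitors. This 4.08-fold rise showed no overlap (edgeR log2 change 2.03 with SE 0.20, adjusted p = 1.04e-06), and the neuron mean was 1159 CPM. miR-7a-5p, made from an intron of Hnrnpk at chr13:58392841-58392863 and from a gene at chr7:78888295-78888317, was at 2845, 3087 and 3852 CPM against 5408, 5880 and 5126 CPM, again without overlap (edgeR log2 change 0.75 with SE 0.14, adjusted p = 0.000944). The printed sequences differ over their shared length by A10U, miR-7a-5p first and counted from the 5′ end, and in length, 23 and 24 bases. A counting step that does not resolve that base would mix the rows. Counts of miR-7b-5p per 100 counts of miR-7a-5p were 1.33, 0.993 and 0.815 in the proliferating libraries. They were 2.01, 2.61 and 2.96 in the differentiating libraries and 5.15, 5.39 and 5.26 in those of neurons, so miR-7b-5p did not follow miR-7a-5p at a fixed share.

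The miR-449 pair, relatives of miR-34 that are best known from multiciliated cells, also rose. miR-449a-5p was at 12.9, 26.6 and 6.55 CPM against 70.0, 87.2 and 64.8 CPM, a 4.70-fold difference with no overlap (edgeR log2 change 2.23 with SE 0.32, adjusted p = 6.55e-05). miR-449c-5p, with 3, 5 and 1 counts against 16, 22 and 14, rose as well (edgeR log2 change 2.15 with SE 0.51, adjusted p = 0.00681), and without replicate 1 of the proliferating progenitors it was not called (edgeR adjusted p = 0.0561). The genes lie side by side in an intron of Cdc20b, at chr13:113037549-113037570 and chr13:113036008-113036028. They share the seed GGCAGUG and differ outside it by U1A, U9C and U14C, miR-449a-5p first. Counts of miR-449c-5p per 100 of miR-449a-5p were 17.6, 19.2 and 20 in proliferating and 16.3, 22.2 and 15.4 in differentiating progenitors, overlapping ranges, against 3.11, 1.06 and 1.64 in neurons. The third tested member of the list, miR-34c-5p, was at 62.2 ± 11.6 CPM against 72.7 ± 5.12 CPM (SD, n = 3 each; log2 change 0.24, edgeR adjusted p = 0.482).

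Of 6 tested miRNAs of the neuronal list 1 rose, 1 fell and 4 were not called, against 16.0% called in either direction among all tested miRNAs. The median log2 change was 0.31 against 0.08 over all. miR-124-5p, the minor strand of a miRNA of neurons, was at 52.3, 82.8 and 38.0 CPM against 178, 250 and 96.1 CPM (edgeR log2 change 1.58 with SE 0.33, adjusted p = 0.00238). The lowest differentiating library lay just above the highest proliferating one. miR-129-5p went down, from 594, 708 and 764 CPM to 296, 306 and 422 CPM (edgeR log2 change -1.01 with SE 0.18, adjusted p = 0.000875), and its neuron mean was 213 CPM. miR-218-5p, a miRNA best known from motor neurons, was at 1189, 1167 and 1158 CPM against 1569, 1464 and 1160 CPM, with 1 differentiating library at the level of the proliferating ones (edgeR log2 change 0.25, adjusted p = 0.353). miR-135a-5p, made from introns of the lincRNA Rmst and of the antisense gene D030055H07Rik, was at 379, 525 and 306 CPM against 753, 801 and 481 CPM (edgeR log2 change 0.74 with SE 0.23, adjusted p = 0.0345). Its groups overlapped, and its relative miR-135b-5p was not called (log2 change 0.18). The sensory miRNA miR-183-5p had 5, 4 and 4 counts against 14, 10 and 23 (edgeR log2 change 1.46 with SE 0.40, adjusted p = 0.0188). Its cluster neighbour miR-182-5p, with 7, 4 and 5 counts against 18, 9 and 15, did not pass (edgeR log2 change 1.005, adjusted p = 0.0966). The call of miR-183-5p was lost without replicate 1 or 2 of the proliferating progenitors (edgeR adjusted p = 0.112 and 0.0521) and without replicate 3 of the differentiating progenitors (0.109). The call of miR-135a-5p was lost without proliferating replicate 1 or 3 (0.131 and 0.141), differentiating replicate 1 or 2 (0.0922 and 0.142) or neuron replicate 1 (0.0608).

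The imprinted Dlk1-Dio3 region on chromosome 12, whose miRNAs are expressed from the maternal chromosome, had 22 tested miRNAs. Of these, 3 rose, none fell in the test and 19 were not called, against 7.98% called higher among all tested miRNAs. The median log2 change was 0.46 against 0.08 over all tested miRNAs. Values above 0 were found for 20 of 22 against 110 of 188 over all, or for 19 of 22 when library totals without miR-9-5p were used for scaling. The 22 include miR-667-5p (6, 4 and 3 counts against 9, 5 and 10) and miR-673-5p (5, 7 and 5 against 9, 2 and 7). Both reached the filter through the neuron libraries, with 61, 23 and 19 counts and with 42, 17 and 18. miR-541-5p, in an intron of the lincRNA Mirg at chr12:109742422-109742446, was at 691, 736 and 956 CPM against 1181, 1058 and 1481 CPM (edgeR log2 change 0.65 with SE 0.16, adjusted p = 0.0103). miR-134-5p, in an exon of Mirg at chr12:109734145-109734166 and known from dendritic growth, was at 79.6, 52.1 and 95.6 CPM against 137, 106 and 184 CPM (edgeR log2 change 0.92 with SE 0.26, adjusted p = 0.0196). miR-380-5p, at chr12:109711806-109711827, had 10, 6 and 5 counts against 25, 14 and 26 (edgeR log2 change 1.25 with SE 0.35, adjusted p = 0.0196). In these 3 the populations did not overlap. Each call depended on single libraries. miR-541-5p was not called without proliferating replicate 1 (edgeR adjusted p = 0.0769) or differentiating replicate 3 (0.0635). miR-134-5p was not called without proliferating replicate 1 or 2 (0.0615 and 0.0741) or differentiating replicate 3 (0.109). miR-380-5p was not called without proliferating replicates 1, 2 or 3 (0.0615, 0.0666 and 0.0541) or differentiating replicates 1 or 3 (0.0653 and 0.0782). Grouped by distance, the 6 tested genes from miR-382-5p to miR-369-5p, at chr12:109733781-109743452, were all above 0, from 0.55 to 0.92. The 8 from miR-379-5p to miR-667-5p ran from -0.07 to 1.25, and the 6 from miR-673-5p to miR-434-5p from -0.30 to 0.51.

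The remaining rises were spread over the range of abundance. miR-3078-5p had 3, 0 and 1 counts against 10, 8 and 12, which is 2.45-fold higher when set against 3 counts per library (edgeR adjusted p = 0.00614). miR-1839-5p, in an exon of the lincRNA 2900076A07Rik, was at 202, 189 and 223 CPM against 291, 302 and 302 CPM (edgeR log2 change 0.55 with SE 0.17, adjusted p = 0.0341), a small difference over a narrow spread. miR-342-5p, in an intron of Evl, was at 22.7, 25.6 and 30.1 CPM against 39.3, 38.8 and 60.5 CPM (edgeR log2 change 0.84 with SE 0.26, adjusted p = 0.0345). miR-466i-5p, listed by name with the rodent-specific cluster in an intron of Sfmbt2, had 3, 15 and 0 counts against 61, 16 and 53. Its spread was wide and the groups overlapped (edgeR log2 change 2.43 with SE 0.78, adjusted p = 0.0397). miR-216b-5p had 0 counts in all proliferating libraries and 2, 2 and 3 in the differentiating ones; no progenitor library exceeded 3 counts, so it passed the abundance filter through the neuron libraries. It is counted among the 15 rises (edgeR adjusted p = 0.0343), but no fold is given, and it was not tested in the 6 progenitor libraries alone. Nor were miR-3078-5p and miR-33-5p. Of these, miR-3078-5p also reached the filter through its counts in the neuron libraries, which were 113, 47 and 35. miR-33-5p did not, but its call too was made only in fits that include neuron libraries. The neighbour of miR-216b-5p, miR-217-5p, with 2, 1 and 2 counts against 4, 4 and 4, was not called (edgeR adjusted p = 0.459), and these neighbours reached more in neurons, 54, 18 and 20 counts of miR-216b-5p and 212, 95 and 75 of miR-217-5p. Without single libraries, miR-1839-5p was not called in 5 fits, those without proliferating replicate 1 or 2 (edgeR adjusted p = 0.123 and 0.128) and without differentiating replicate 1, 2 or 3 (0.0667, 0.0722 and 0.0790). miR-342-5p was not called without proliferating replicate 1 or 2 (0.176 and 0.0741), differentiating replicate 3 (0.161) or neuron replicate 1 (0.0551). miR-466i-5p was not called without proliferating replicate 1 or 3 (0.196 and 0.108), differentiating replicate 1 or 3 (0.0731 and 0.0936) or neuron replicate 1 (0.0800). miR-216b-5p was not called without any of the proliferating libraries (0.146, 0.0836 and 0.0913) or without differentiating replicate 2 or 3 (0.0699 and 0.0936).

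Among the falls outside the blood and vessel lists, miR-450b-5p stood out within its own cluster. It lies at chrX:53048044-53048065 on the minus strand, with a copy of miR-450a-5p at chrX:53048206-53048227, and was at 117, 108 and 164 CPM against 51.4, 36.1 and 47.0 CPM (edgeR log2 change -1.52 with SE 0.25, adjusted p = 0.000402). miR-450a-5p was at 133, 135 and 127 CPM against 136, 125 and 121 CPM (edgeR log2 change -0.05, adjusted p = 0.871). The remaining tested genes of this cluster were not called either: miR-351-5p at -0.25, miR-503-5p at -0.28 and miR-322-5p at 0.14. Counts of miR-450b-5p per 100 of miR-450a-5p were 88.0, 80.3 and 129 in the proliferating libraries, 37.9, 28.9 and 38.8 in the differentiating libraries and 9.92, 5.505 and 7.30 in those of neurons. The ratio thus fell in a cluster whose members are commonly described as sharing a primary transcript. The mature sequences differ at 7 positions, G7A and A8G in the seed among them (miR-450a-5p first).

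miR-148a-5p and miR-148b-5p, which share the seed AAGUUCU but come from separate genes on chromosomes 6 and 15, differed in the same way. miR-148a-5p, at chr6:51269867-51269888, went from 102, 94.0 and 102 CPM to 39.3, 44.0 and 24.9 CPM (edgeR log2 change -1.47 with SE 0.27, adjusted p = 0.000875). miR-148b-5p, in an intron of Copz1, was at 31.8, 30.7 and 34.0 CPM against 35.7, 28.2 and 32.7 CPM (edgeR log2 change 0.01, adjusted p = 0.982). There were 321, 307 and 300 counts of miR-148a-5p per 100 of miR-148b-5p in proliferating and 110, 156 and 76.1 in differentiating progenitors. The sequences differ at 9 of the positions they share.

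miR-27a-5p and miR-24-2-5p are cut from neighbouring hairpins on the plus strand, at chr8:84208685-84208706 and chr8:84208839-84208860, a cluster well known from endothelial cells. miR-27a-5p had 56, 53 and 13 counts against 19, 4 and 4, a 5.64-fold fall with wide spread but no overlap in CPM (edgeR log2 change -2.50 with SE 0.49, adjusted p = 0.00160). miR-24-2-5p was at 35.6, 42.9 and 44.5 CPM against 24.3, 30.8 and 19.9 CPM and did not pass (edgeR log2 change -0.71 with SE 0.26, adjusted p = 0.0692), except without replicate 2 of the neurons (0.0428). The ratio of the pair overlapped between populations, 119, 126 and 38.2 counts of miR-27a-5p per 100 against 55.9, 11.4 and 14.3. miR-27b-5p of the paralogous cluster was at 10.3 CPM against 8.94 CPM on average (log2 change -0.16, and 0.17 without differentiating replicate 3). miR-221-5p, one arm of miR-221, a further miRNA known from endothelial cells, was at 37.9, 37.8 and 30.1 CPM against 22.8, 25.5 and 8.54 CPM (edgeR log2 change -0.92, adjusted p = 0.0735). The summed blood and vessel level given above, mostly miR-143-3p and miR-451a, fell alongside these miRNAs, and its part in their fall was not tested.

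**Figure D3:**
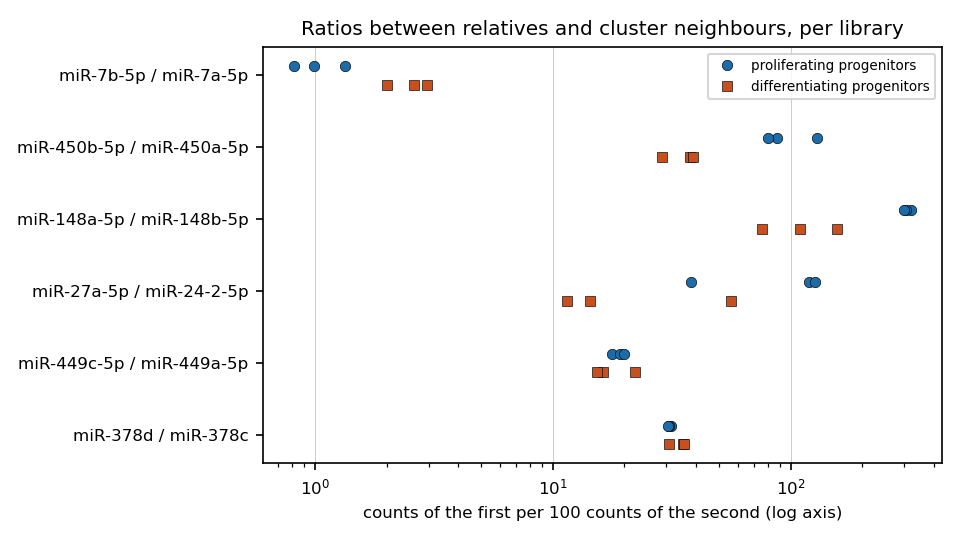
Counts of one miRNA per 100 counts of a relative or cluster neighbour, on a log axis, in each of the 3 proliferating and 3 differentiating libraries. The ratios of miR-7b-5p, miR-450b-5p and miR-148a-5p to their partners separate the populations, whereas those of miR-449c-5p to miR-449a-5p and of miR-378d to miR-378c overlap.

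The other falls were smaller or rested on few counts. miR-467a-5p of the Sfmbt2 cluster, merged with miR-467b-5p because the counts of those rows differed by at most 2%, was at 197, 157 and 257 CPM against 111, 99.5 and 67.6 CPM (edgeR log2 change -1.13 with SE 0.23, adjusted p = 0.00188). The 6 tested miRNAs in the list of that cluster thus held 1 fall and 1 rise, that of miR-466i-5p, and 4 without a call. Membership was by name, as no position was matched for miR-467a-5p or miR-466i-5p. Since the members of the list are near copies of each other, reads may have been split among them. miR-378c was at 587, 605 and 641 CPM against 398, 325 and 455 CPM (edgeR log2 change -0.64 with SE 0.17, adjusted p = 0.0177), and miR-378d at 183, 187 and 195 against 140, 115 and 140 CPM (edgeR log2 change -0.51, adjusted p = 0.0731). Both names are near copies of the main strand of miR-378a, so the gene of origin is uncertain. miR-92b-5p, from an intergenic gene at chr3:89227165-89227188, was at 371, 312 and 391 CPM against 234, 179 and 293 CPM (edgeR log2 change -0.60 with SE 0.19, adjusted p = 0.0345). miR-32-5p, in an intron of Tmem245, was at 146, 136 and 164 CPM against 111, 92.5 and 72.6 CPM (edgeR log2 change -0.69 with SE 0.22, adjusted p = 0.0388). miR-33-5p, in an intron of Srebf2, the gene of a regulator of cholesterol synthesis, had 10, 15 and 9 counts against 2, 5 and 6 (edgeR log2 change -1.75 with SE 0.45, adjusted p = 0.0131). The populations did not overlap for any of these except in the case of miR-466i-5p.

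Several of these smaller falls were lost without a single library. miR-378c was not called without proliferating replicate 1 or 3 (edgeR adjusted p = 0.0505 and 0.0558) or differentiating replicate 2 (0.112). miR-92b-5p was not called without proliferating replicate 1 or 3 (0.131 and 0.122), differentiating replicate 1 or 2 (0.0813 and 0.164) or neuron replicate 1 (0.0608). miR-32-5p was not called without proliferating replicate 1 or 3 (0.118 and 0.122), differentiating replicate 2 or 3 (0.112 and 0.134) or neuron replicate 1 (0.0803). miR-33-5p was not called without proliferating replicate 2 (0.0741) or differentiating replicate 1 (0.0635).

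miR-1298-5p, in an intron of the serotonin receptor gene Htr2c on the X chromosome and known from the choroid plexus, had 38, 69 and 13 counts against 7, 20 and 2 (edgeR log2 change -2.36 with SE 0.60, adjusted p = 0.0119). The groups overlapped, since differentiating replicate 2 stood at 17.6 CPM and proliferating replicate 3 at 17.0 CPM. miR-204-5p, another miRNA abundant in the choroid plexus, was at 26.5, 78.7 and 2.62 CPM against 7.14, 44.9 and 13.5 CPM and was not called (edgeR log2 change -0.80 with SE 0.69, adjusted p = 0.482). Without replicate 2 of the proliferating progenitors its log2 change was 0.35. Over the 6 rows of a choroid plexus list drawn up after these values were seen, the summed level was 56.9, 154 and 20.9 CPM in proliferating and 12.1, 67.8 and 16.4 CPM in differentiating progenitors. Replicate 2 was the highest of both populations. The part of choroid plexus tissue in the fall of miR-1298-5p was not tested.

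**Figure D4:**
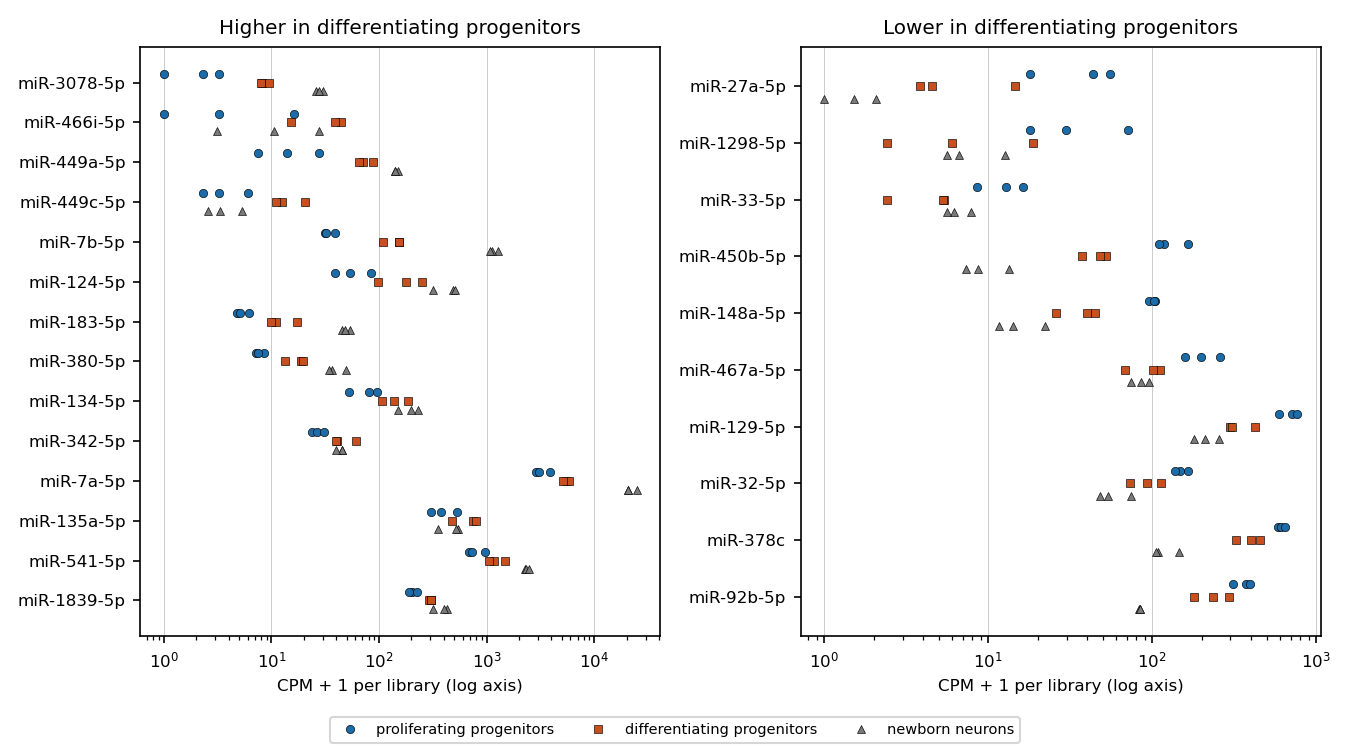
CPM + 1 per library on a log axis for 24 of the 25 called miRNAs outside the blood and vessel lists (miR-216b-5p, at or under 3 counts in every progenitor library, is left out); each symbol is 1 library. Within most of these miRNAs the 3 proliferating and 3 differentiating libraries separate; they overlap for miR-466i-5p, miR-135a-5p and miR-1298-5p.

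The large families of abundant miRNAs showed few calls. None of the 10 tested let-7 and miR-98 miRNAs, which are known to rise as tissues mature, was called, against 16.0% of all tested miRNAs. At an unadjusted p under 0.05 edgeR gave 3 of them, and DESeq2 called 2. Their median log2 change was 0.11, and they ran from -0.09 for let-7j to 0.54 for let-7b-5p. let-7b-5p was at 2800, 3555 and 2144 CPM against 3277, 4914 and 4179 CPM, overlapping (SE 0.18, edgeR adjusted p = 0.0514). It passed without proliferating replicate 2 (0.00712), differentiating replicate 1 (0.0182) or neuron replicate 3 (0.0419), in DESeq2 (0.0258), with RLE factors (0.0441) or library totals (0.0476) as scaling, without the filter (0.0105), with a filter at 10 CPM (0.0159) and with no names merged (0.0406). With TMM scaling 8 of the 10 were above 0, and with library totals without miR-9-5p 6 were. Together the let-7 rows held 13.8%, 13.6% and 12.03% of the counts in proliferating and 13.7%, 16.0% and 15.1% in differentiating progenitors. The 5 tested members of miR-99, miR-100 and miR-125 had a median of 0.06 and no call in edgeR, in DESeq2 or at an unadjusted p under 0.05, from -0.20 for miR-100-5p to 0.21 for miR-125a-5p.

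The miR-17-92 cluster and its paralogs, known for promoting proliferation, had 11 tested members and no call in edgeR, in DESeq2 or at an unadjusted p under 0.05. Over all tested miRNAs edgeR called 16.0%, and 50 of 188 had an unadjusted p under 0.05. The median of the list was -0.15 against 0.08 over all, with 3 of 11 above 0, 5 with library totals as scaling and 1 with library totals without miR-9-5p. The abundant members were at nearly the same level in both populations: miR-20a-5p at 4851 ± 309 CPM against 4964 ± 668 CPM, miR-17-5p at 2203 ± 91.2 against 2206 ± 239 CPM and miR-93-5p at 2485 ± 153 against 2463 ± 273 CPM (SD, n = 3 each). The SE of these log2 changes was 0.18 to 0.19, which limits what could be detected. The 3 tested genes of the paralogous cluster on the X chromosome, miR-20b-5p, miR-18b-5p and miR-106a-5p, ran from -0.46 to -0.15, and the 3 of the Mcm7 cluster on chromosome 5 from -0.27 to -0.01. Near-identical members such as miR-17-5p and miR-106a-5p may share reads. The largest change was that of miR-92a-1-5p (edgeR log2 change -1.05 with SE 0.50, adjusted p = 0.183), with 35, 21 and 6 counts against 24, 10 and 3; it was called without differentiating replicate 1 (edgeR log2 change -1.89, adjusted p = 0.0226) and with the replicate block (0.0370).

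Several further lists held no call in edgeR. Not all of them are families by seed, since miR-130b-5p and miR-301a-5p have different seeds, as do miR-219a-5p and miR-338-5p. The seed of let-7j also differs from that of the other let-7 miRNAs above. At an unadjusted p under 0.05 there was 1 each in the miR-181, miR-130 and oligodendrocyte lists and 0 in those of miR-15, miR-30 and miR-26, and DESeq2 called 1 miR-181 miRNA and none of the others. In the miR-15 and miR-16 family of 4 tested miRNAs the largest change was that of miR-15b-5p, at 400, 364 and 397 CPM against 335, 274 and 224 CPM (edgeR log2 change -0.48 with SE 0.23, adjusted p = 0.183). Its groups did not overlap. miR-16-5p, from the same intron of Smc4 and from a further gene in Dleu2, was at 1010 ± 30.2 against 900 ± 106 CPM (SD, n = 3 each). The 4 tested miR-181 miRNAs ran from 0.03 to 0.39, with 2 of them below 0 under library totals without miR-9-5p, the most abundant being miR-181a-5p at 7103, 7407 and 6448 against 8216, 8490 and 8939 CPM, without overlap (edgeR log2 change 0.29 with SE 0.12, adjusted p = 0.113), and it passed without neuron replicate 3 (0.0485), in DESeq2 (0.0212), with a filter at 10 CPM (0.0473) and in the 6 progenitor libraries alone (0.0389). The miR-30 family of 5 ran from -0.49 for miR-30b-5p to 0.17 for miR-30e-5p, and its most abundant member miR-30a-5p had a log2 change of 0.00 (SE 0.13). Of the miR-26 pair, miR-26a-5p had a log2 change of 0.20 and miR-26b-5p one of -0.06. Of 3 miR-130 and miR-301 miRNAs, miR-130b-5p was at 1346, 1301 and 1588 against 1040, 923 and 1233 CPM (edgeR log2 change -0.41 with SE 0.17, adjusted p = 0.115); it was called without neuron replicate 3 (0.0435). The 2 tested miRNAs of the oligodendrocyte list, miR-219a-5p and miR-338-5p, were at 42.2 and 20.4 CPM against 26.4 and 17.0 CPM on average, with no call.

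**Figure D5:**
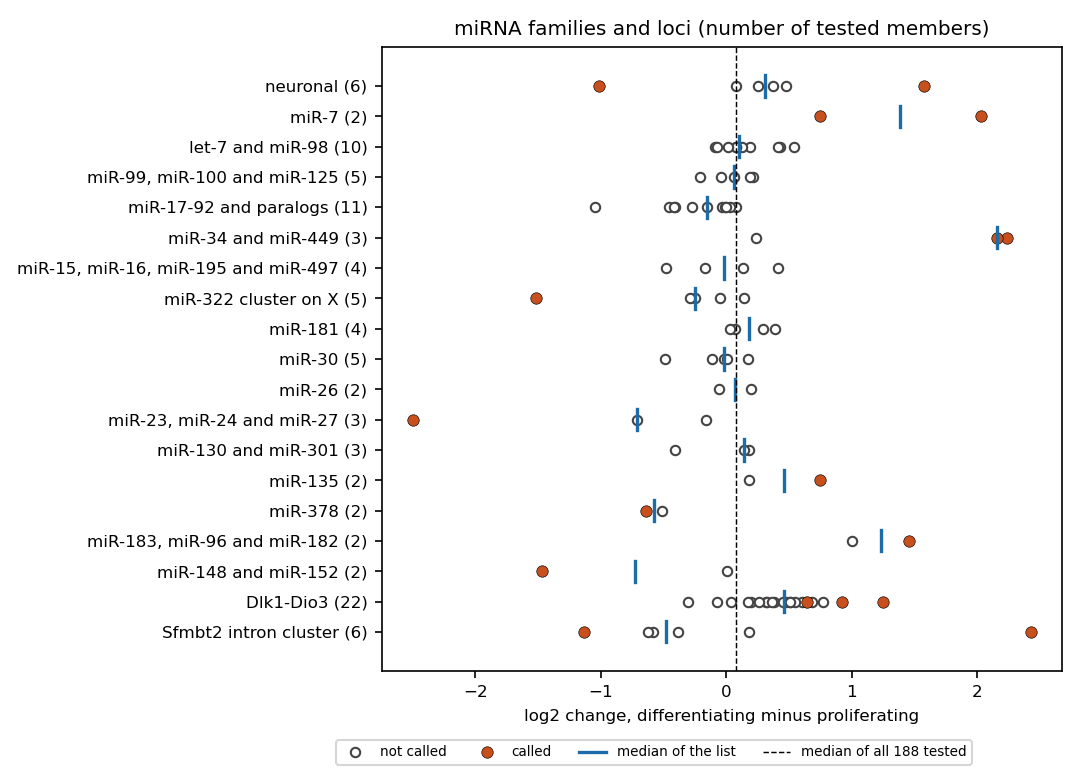
Log2 change from proliferating to differentiating progenitors for each tested miRNA of the lists of families and loci with at least 2 tested members (filled points are called, bars are list medians, the dashed line is the median of all 188). The medians of the let-7, miR-17-92, miR-181 and miR-30 lists run from -0.15 to 0.18 and none of their members is called, although miR-92a-1-5p lies at -1.05; called members of the miR-322, miR-23 and miR-148 lists lie at -1.52, -2.50 and -1.47.

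The 34 miRNAs that did not overlap between the populations but were not called included miR-708-5p, at 733, 750 and 679 CPM against 999, 992 and 894 CPM (edgeR log2 change 0.41 with SE 0.14, adjusted p = 0.0514). miR-139-5p, which was far higher in neurons with a mean of 209 CPM, had 4, 14 and 8 counts against 23, 21 and 34 (edgeR log2 change 1.18 with SE 0.40, adjusted p = 0.0530). Both were chosen here for lying closest to the threshold without overlap.

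Settings other than left-out libraries also ended calls. With predicted rows included the adjusted p-values of edgeR were 0.0525 for miR-33-5p and miR-216b-5p, 0.0544 for miR-449c-5p, 0.0614 for miR-342-5p, 0.0625 for miR-92b-5p and 0.0729 for miR-1839-5p. In that fit they were 0.0890 for miR-32-5p, 0.102 for miR-134-5p, 0.116 for miR-1298-5p, 0.157 for miR-135a-5p and 0.221 for miR-466i-5p. DESeq2 did not call miR-342-5p (adjusted p = 0.0526), miR-380-5p (0.0555), miR-32-5p (0.0572), miR-33-5p (0.0696), miR-216b-5p (0.122) or miR-466i-5p (0.200). Scaling by library totals without miR-9-5p ended the calls of miR-32-5p (0.0534), miR-135a-5p and miR-466i-5p (0.0544 each), miR-134-5p (0.0566), miR-342-5p (0.0593) and miR-1839-5p (0.1). Plain library totals ended those of miR-466i-5p (0.0717), miR-92b-5p and miR-32-5p (0.0937 each), and RLE factors that of miR-32-5p (0.0556). Without the filter miR-1839-5p and miR-342-5p (0.0622 each) and miR-216b-5p (0.0768) were not called, and with a filter at 10 CPM miR-32-5p (0.0591) and miR-92b-5p (0.0605) were not. In the 6 progenitor libraries alone miR-92b-5p was not called (0.0524), and with the replicate block miR-466i-5p was not (0.0550).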

How the data were processed

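Small RNA was sequenced from 3 sorted populations of the mouse cortex, 3 libraries each. The authors deposited whole-number read counts per miRNA and library, not normalised, as the values show. The submitters' processing notes name bcl2fastq 1.8.2, DESeq2 and the mm10 build; the aligner, counter and database release are not given in the sources used here. Of 1433 rows, 222 had no database identifier and were left out. For each of 1059 mature names the row with the largest total was kept, and names whose counts were the same within 2% of the larger sum (50 counts or more) were joined into 7 groups, leaving 1052. edgeR 4.0.16 (R 4.3.3) was run on these counts with filterByExpr, TMM factors and the quasi-likelihood test over all 9 libraries, with Benjamini-Hochberg adjustment across all 188 tested miRNAs and a threshold of 0.05. CPM are counts per 1000000 of the library total after scaling by TMM factors. The model was tested on simulated data. The miRNAs and lists were chosen with earlier results of these data known, and the choroid plexus list was added last. Named miRNAs are all called ones, the 5 most abundant, every tested member of the blood and vessel lists, and the most abundant and most changed member of each other list; any further miRNA was chosen after its values were seen. Alternatives were other scalings, filters and row rules, DESeq2 1.42.0, a replicate block and leaving out each library. Libraries of a population differed by far more than counting noise (chi-square per degree of freedom from 7.96 to 105), so none was a repeated deposit.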

Additional observations from a re-analysis of the deposited data

Results flagged for a closer look

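Rows without a database identifier entered no comparison, and 60 of the 222 had more than 3 counts, the limit that a count of 0 allows, in at least 1 progenitor library. Of the 28 such rows that reached 20 counts in a progenitor library, 21 had 0 counts in another library of a population in which they were counted, and 10 of the 222 had a count in all 6. When they were added to the fit, 20 passed the filter and none was called in edgeR, with 2 at an unadjusted p under 0.05; DESeq2 was not run on these rows.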

How the results depend on the processing

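Over 21 alternatives, 15 of the 30 calls were kept wherever the miRNA was tested, and 15 were lost in at least 1; no called miRNA changed direction. The 30 calls became 19 when predicted rows were included, and the 15 rises became 8 there; the cause was not tested. In 9 fits lacking a single library the calls ran from 18 to 37, the rises from 5 to 18 and the falls from 12 to 19. With the replicate number as a block 33 were called (15 higher, 18 lower), 29 of them shared. Same-numbered libraries of the populations correlated in their deviations by 0.0213, 0.254 and 0.205, and differently numbered ones by -0.256 to 0.0404. The main fit did not pair the libraries, and whether equal numbers mark a shared origin was not tested. Other scalings gave 24 to 31 calls, and the median log2 change of all tested miRNAs stayed between 0.0067 and 0.145. Over all 188 tested miRNAs none that was called changed sign; of the others up to 22 did in a fit (without differentiating replicate 3), and 15 with library totals without miR-9-5p. Among the miRNAs named by rule the sign changed for miR-26a-5p in the fits without 1 library (-0.047 to 0.328), let-7i-5p with library totals without miR-9-5p (-0.0022), miR-20a-5p with those totals (-0.036), only identical names merged (-0.0060), predicted rows (-0.011) and the fits without 1 library (-0.079 to 0.106), and miR-30a-5p with those totals (-0.067), identical names (-0.030), predicted rows (-0.035), blood and vessel rows removed (-0.0048) and the fits without 1 library (-0.035 to 0.055). Depth limits miRNAs under 10 CPM most, since 3 counts stand for 2.01 to 3.65 CPM.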
